A study of Drosophila melanogaster with 23 samples.

Results

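The transcriptome of Drosophila S2R+ cells after 24 h at 14 °C was compared with that of the same line at 25 °C. S2R+ is a cultured line of embryonic origin with hemocyte-like properties. The comparison used 11 of the 23 arrays of a time course, namely all arrays titled 24h (n = 5) against all arrays from cells that had stayed at 25 °C (n = 6). These 6 were 3 arrays at 0 h of the shift and 3 arrays after a further 12 h at 25 °C (t12_25). All groups came from dishes first cultured for 36 h at 25 °C in Schneider's medium with serum and antibiotics, with no transgene or drug in any group. The other 12 arrays (4 h, 12 h and 72 h at 14 °C) entered the fit and were used to place the 24 h values in the time course. All non-control probes were members: 32162 on the array, of which 15503 passed the filter on low signal and were tested.

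Chromosome replication begins where the origin recognition complex (ORC) binds DNA in G1 phase. Cdc6 and Cdt1 then load the MCM2-7 helicase, and Cdc45 and the GINS complex turn it into an active fork helicase, after which primase and DNA polymerase alpha start each new strand. Many of these genes are transcribed under E2F and Dp control as cells enter S phase, and ribonucleotide reductase supplies the deoxynucleotides. Flies cannot hold their body temperature, so their cells must run metabolism, membranes and protein folding over a wide range of temperatures, and hemocyte-like cells also carry innate immune receptors, engulfment receptors and integrin adhesions.

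The hemocyte GATA factor srp and its partner ush were well above background on all 11 arrays, with mean log2 intensities of 11.10 and 12.02 at 24 h and 11.24 and 11.57 at 25 °C. Of 18 hemocyte markers, these were the 2 that could be paired with a probe, so the label was checked on those alone. The mesoderm factor twi was not well above background on any of the 11 arrays. The germline gene vas was above it at 1 of its 2 probes, on 1 array of each group. The neuronal gene Syt1, by contrast, was well above background on all 11 arrays, as srp and ush were. Syt1 read 7.86 at 24 h and 7.50 at 25 °C (adjusted p = 0.112). Between 46.8% and 58.1% of probes were well above background per array. A total of 7 slides carried the series, and no slide held both 24 h and 25 °C arrays (3 slides and 4 slides), so slide and temperature cannot be told apart within a slide. A slide term could be estimated through the other time points, and its effect on calls is given beside the genes and lists concerned. The 24 h dishes were also older than the 25 °C dishes, so time in culture and temperature cannot be told apart beyond the 12 h that t12_25 covers. The labels only number the replicates. The study describes them as biological replicates, some from a repeat of the experiment. The p-values rest on the spread within groups pooled over all arrays of the series, with each array taken as independent. Same-numbered arrays of 0 h, t12_25 and 24 h deviated together (r from 0.348 to 0.884). The printed standard errors and p-values leave this pairing out, so the 25 °C arrays may hold fewer independent values than their number. They leave slide out as well. With slide as a random block, the fitted correlation within a slide was 0.6. The 24 h arrays came from 3 slides, so they too may hold fewer independent values than their number. In bulk RNA, fewer cells of a kind and less RNA per cell cannot be told apart.

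At 24 h, genes of DNA replication were lower at most steps of the pathway, together with genes for CENP-A, a linker histone, a pair of peroxiredoxins and the glutathione transferase GstZ1. Genes called higher included Tat, the first enzyme of tyrosine breakdown, and the immune genes pirk and Sting. Others were the integrin adhesion genes ItgaPS4, Zasp52 and Pax, the tubulin gene betaTub97EF, the water channel gene Prip and the kinase gene rl. With a slide term in the fit, ItgaPS4 and Pax missed the fold limit given next. A probe was called when its change was at least 2-fold with a Benjamini-Hochberg adjusted p under 0.05 in limma. In all, 530 probes were called, 3.42% of those tested, with 285 higher (1.84%) and 245 lower (1.58%). They represent 465 transcripts, 253 with a higher probe and 212 with a lower one. Without the fold limit, 5026 probes passed, so most changes were under 2-fold. Of those tested, 2467 (15.9%) passed as higher and 2559 (16.5%) as lower, the shares to set beside the list counts below. The median log2 change was 1.22 over the higher probes and -1.19 over the lower ones, and 25 probes changed by more than 4-fold (20 higher, 5 lower). Groups did not overlap at 508 of the called probes (95.8%), against 3014 of all probes tested (19.4%). Every 24 h array showed the shift: the array's median over the lower probes lay between -1.11 and -1.39, and over the higher probes between 1.17 and 1.38. These are the arrays that chose the probes, so the ranges describe them only.

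Between the 25 °C arrays of the 2 times, limma called 0 probes, with 385 at an unadjusted p under 0.05. Against the 0 h arrays alone 542 probes were called, and against t12_25 alone 548. With slide as a fixed block 599 probes were called, 2.19% of those tested as higher and 1.68% as lower. Of the 599, 436 were among the 530 (82.3% of the 530 and 72.8% of the 599), and all 530 kept their sign. With that block 11.4% of tested probes passed the adjusted p as higher and 11.7% as lower. As a random block, slide gave 547 calls, 480 of them among the 530. Scaling to array medians moved the median of all probes by -0.18 and turned the split to 156 higher and 602 lower, so directions here are relative to the quantile-normalized distribution.

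Only 3991 probes could be paired with 1 gene symbol. Of the called probes, 114 belonged to 94 named genes, 47 with a higher and 47 with a lower probe. Below, the 5 log2 intensities at 24 h are given in replicate order, followed by the lowest, median and highest of the 6 arrays at 25 °C. Changes are log2 differences with their standard error from the fit. Outside the fixed lists, genes are grouped by known role, a grouping made after their changes were seen. The 15 highest and 15 lowest named genes were taken only where groups did not overlap. For them, absence of overlap follows from that choice.

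Among the process lists, DNA replication had the most probes called lower. Of 53 tested probes on the study's S phase list, for 37 genes, all 53 had a negative change, 44 passed the adjusted p and 18 probes of 15 genes were called lower, with none higher. The list median was -0.80, against 0.003 over all probes tested, and 33 of the 53 had no overlap (10.1% of all tested probes were lower without overlap). The 5 arrays at 24 h had list means of -0.98 to -0.72 relative to the 25 °C mean, and the 6 arrays at 25 °C lay between -0.04 and 0.07. With a slide block the median was -0.91 and 23 probes were called. The list was curated by the study for cell cycle genes, and it was known here to have moved in these data.

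In the ORC, Orc6 changed most. It read 8.38, 8.31, 8.40, 8.56 and 8.92 at 24 h, against 10.26, 10.37 and 10.57 at 25 °C. The highest 24 h array was thus below the lowest array at 25 °C by more than a log2 unit, and the change was -1.87 ± 0.12 (3.66-fold lower, adjusted p = 1.36e-10). Orc1, the large ATPase subunit, read 11.17, 10.83, 11.31, 10.88 and 11.23 against 12.02, 12.39 and 12.54, a change of -1.24 ± 0.14 (adjusted p = 3.99e-07). Its second probe gave -1.18. Orc5 read 8.12, 7.75, 8.33, 7.80 and 8.30 against 8.91, 9.34 and 9.73 (-1.24 ± 0.17, adjusted p = 9.17e-06), but its second probe gave -0.48 ± 0.20 and did not pass (adjusted p = 0.0747). The latheo gene (lat, Orc3) had a called probe at -1.01 and a second at -0.67, and Orc4 changed by -0.91. All 3 Orc2 probes passed without reaching 2-fold (-0.38 to -0.58). Groups did not overlap at the Orc1, Orc6, lat and Orc4 probes, while at Orc5 and Orc2 the probes with smaller changes overlapped.

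Both licensing factors passed the adjusted p below 2-fold. The gene dup, the fly Cdt1, read 11.06, 10.98, 11.12, 10.95 and 10.76 against 11.73, 11.94 and 12.02, so groups were apart, with a change of -0.93 ± 0.09 (adjusted p = 3.68e-08). Cdc6 changed by -0.73 ± 0.13 (adjusted p = 1.79e-04).

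Among the 6 MCM subunits, 5 were called. Mcm5 read 10.84, 10.41, 10.77, 10.41 and 10.61 against 11.67, 12.08 and 12.36, a change of -1.45 ± 0.13 (2.73-fold, adjusted p = 2.82e-08). The Mcm4 gene dpa read 13, 13.07, 13.01, 12.65 and 12.93 against 14.20, 14.34 and 14.51 (-1.43 ± 0.09, adjusted p = 2.01e-10). Mcm3 read 10.58, 10.47, 10.58, 10.14 and 10.63 against 11.59, 11.94 and 12.14 (-1.41 ± 0.13, adjusted p = 3.88e-08). At all of these, every 24 h array was below every array at 25 °C. Mcm2 changed by -1.31 ± 0.09 (adjusted p = 1.00e-09) and Mcm6 by -1.12 at both of its probes. Mcm7 was the exception, with -0.70 ± 0.19 at one probe (adjusted p = 0.00588) and -0.39 at another that did not pass. With a slide block its first probe stood at -0.34 (adjusted p = 0.386), and the difference between Mcm7 and the other subunits was not tested.

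At the fork, Sld5, a GINS subunit, read 11.11, 10.94, 11.13, 10.68 and 11.20 against 12.31, 12.44 and 12.61, a change of -1.45 ± 0.10 (2.74-fold, adjusted p = 8.94e-10). The GINS subunit Psf1 was just under the fold limit at -0.99, whereas Psf2 (-0.43) and the 2 Psf3 probes (-0.35 and -0.29) passed the adjusted p with smaller changes. Cdc45, the partner of GINS, changed by -0.83 and Mcm10 by -0.89. Groups did not overlap at the Sld5, Psf1, Mcm10 and first Cdc45 probes.

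Primase had the largest change on the list. Prim1, the catalytic primase subunit, read 9.24, 9.07, 9.14, 8.43 and 9.03 at 24 h against 10.74, 10.88 and 10.97 at 25 °C. Replicate 4 was the lowest of the 24 h arrays, and all 5 were more than a log2 unit below the lowest array at 25 °C (-1.88 ± 0.11, 3.68-fold lower, adjusted p = 6.88e-11). Its partner Prim2 read 10.20, 10.15, 10.26, 9.81 and 10.19 against 11.06, 11.26 and 11.40 (-1.11 ± 0.09, adjusted p = 6.57e-09). PolA2, the regulatory subunit of DNA polymerase alpha, changed by -1.19 ± 0.19 (adjusted p = 3.33e-05), and the catalytic PolA1 by -0.84 and -0.80 at its probes. Ctf4, which ties polymerase alpha to the helicase and was not on the list, changed by -1.13 ± 0.31 (adjusted p = 0.00698), with overlap between its 24 h values of 8.54 to 10.10 and its 25 °C values of 9.85 to 11.24. PolG1, the mitochondrial DNA polymerase, was also lower, by 2.16-fold (-1.11 ± 0.10, adjusted p = 3.13e-08). The clamp loader and single-strand binding genes showed less: RfC4 passed at 1 of 2 probes, RPA2 changed by -0.50, and RPA1 (-0.14, adjusted p = 0.914) and RfC3 (-0.11, adjusted p = 0.564) did not pass.

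Both genes of ribonucleotide reductase were lower too. RnrS, the small subunit, read 13.47, 13.38, 13.45, 13.16 and 13.38 against 14.65, 14.74 and 14.82. Both groups were tight, and the change of -1.37 ± 0.07 had the smallest adjusted p on the S phase list (4.97e-12). The large subunit RnrL read 14.25, 14.31, 14.36, 13.73 and 14.29 against 15.05, 15.30 and 15.45 (-1.07 ± 0.11, adjusted p = 1.47e-07).

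**Figure D1:**
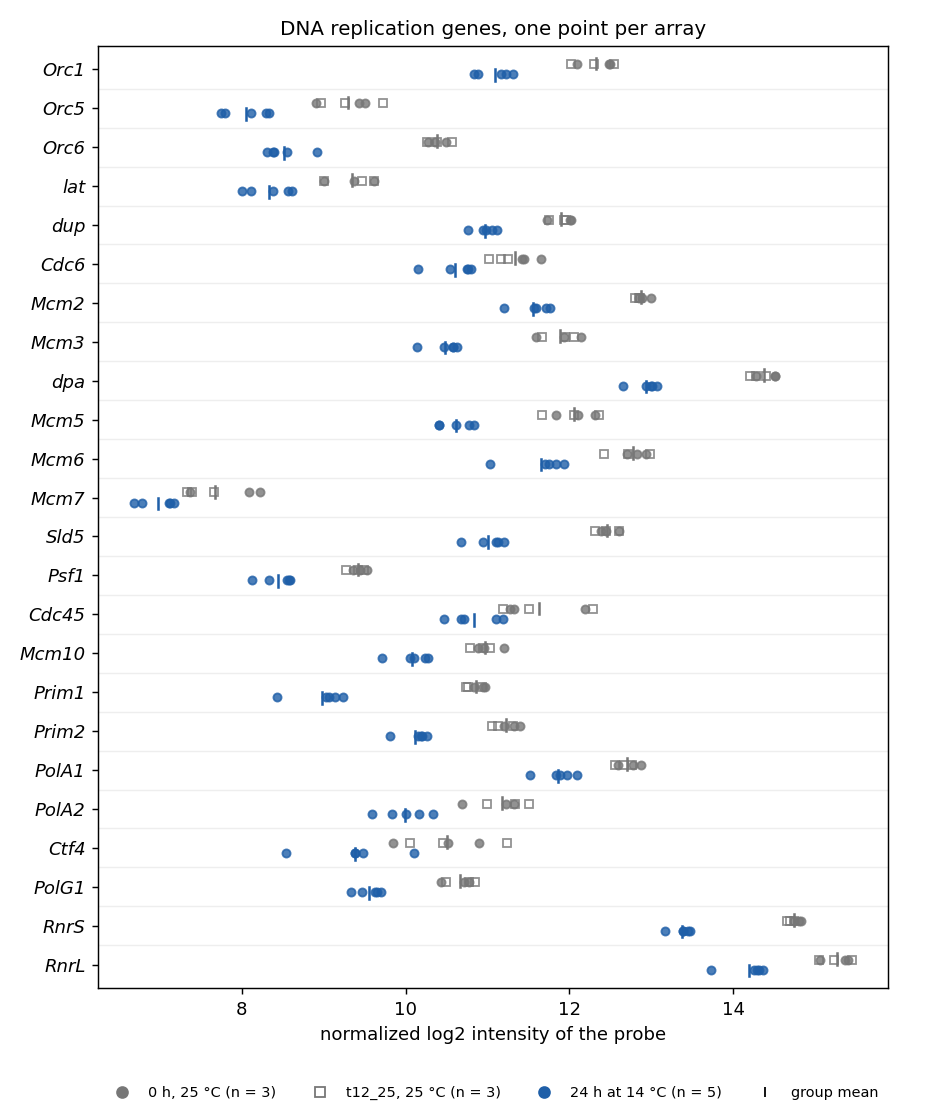
Log2 intensity (x axis) of 24 DNA replication and nucleotide supply genes, 1 probe each, with a point for every array at 0 h (grey discs), t12_25 (open squares) and 24 h at 14 °C (blue discs) and a bar at each group mean. Each shown gene's mean at 24 h lies to the left of its mean at 25 °C. Prim1 and Orc6 show the widest gaps, and Ctf4 shows overlapping arrays. The genes were chosen for display, and some with smaller changes (Orc2, Psf2, Psf3, RPA1, RPA2 and RfC3) are not shown.

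Outside replication proper, cell division genes showed fewer and smaller changes. On the M phase list, 45 probes were tested, 2 were called lower and none higher, and 20 passed the adjusted p as lower against 1 as higher (median -0.33). The 2 called genes act at the centromere. The CENP-A histone cid read 9.21, 9.26, 9.16, 8.51 and 8.95 against 10.01, 10.24 and 10.36 (-1.19 ± 0.11, adjusted p = 3.42e-08). The kinetochore gene Mis12 read 9.07, 8.95, 8.99, 8.70 and 8.91 against 10.03, 10.11 and 10.17 (-1.18 ± 0.07, adjusted p = 4.13e-11). Groups were fully apart at both. The kinetochore genes Nuf2 (-0.75), Ndc80 (-0.71) and Spc25 (-0.64) passed below 2-fold, while Spc105R passed in the other direction (0.44, adjusted p = 0.0390).

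Of the cell cycle regulators in a list of 21 symbols, 15 probes of 8 genes were tested, none was called and 7 passed as lower (median -0.30). CycE, the S phase cyclin, passed at each of its 4 probes (-0.24 to -0.58), and CycA at 1 of 2 (-0.32). None of the 3 CycB probes passed (0.08 to 0.31), nor did stg, the mitotic Cdc25 phosphatase (-0.49, adjusted p = 0.508). The linker histone probe His1:CG33804 read 8.92, 9.06, 8.91, 8.64 and 8.87 against 9.80, 10.00 and 10.15, with a change of -1.11 ± 0.09 (adjusted p = 3.05e-09). The histone H1 gene is present in many near-identical copies, so this probe reports the family and not that copy. The mms4 gene, a partner of the Mus81 structure-specific nuclease in DNA repair, fell by 1.17 (adjusted p = 1.60e-07).

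**Figure D2:**
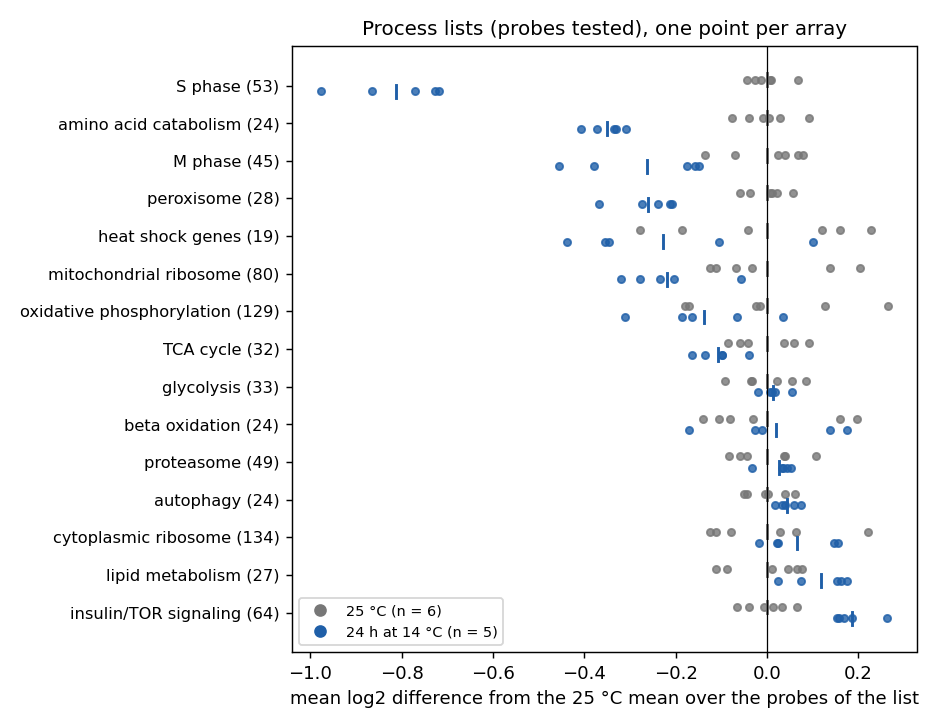
Mean log2 difference from the 25 °C mean (x axis) over the tested probes of 15 process lists, a point per array for 25 °C (grey, n = 6) and 24 h at 14 °C (blue, n = 5), bars at group means and the number of probes in parentheses. The S phase list stands lowest, at -0.98 to -0.72 on the 24 h arrays; the other lists lie within 0.5 log2 units of 0.

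Among genes that rose, Kah, which encodes a Snail-family zinc finger protein, ranked first by its most intense probe. It read 10.05, 9.52, 9.74, 8.87 and 9.50 at 24 h against 6.63, 7.0 and 7.70 at 25 °C. The groups were separated by more than a log2 unit (2.44 ± 0.20, 5.42-fold, adjusted p = 5.24e-09). Its second probe was not well above background on any array at 25 °C and gave a rise of at least 1.49-fold (adjusted p = 5.45e-05). That bound sets the mean at 24 h against the higher of the probe's own signal and the lowest signal counted as well above background on each array at 25 °C.

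Tat, tyrosine aminotransferase, the first enzyme of tyrosine breakdown, read 8.42, 8.24, 8.48, 8.40 and 8.65 against 6.23, 6.27 and 6.36. It was well above background on all 5 arrays at 24 h and on 3 of 6 at 25 °C. The change of 2.16 ± 0.08 (4.46-fold) had an adjusted p of 4.12e-14. Near background its size depended on the processing: it was 1.51 without the limit on local backgrounds and 5.34 with the scanner's processed signals scaled to their 75th percentile. GstZ1, a zeta-class glutathione transferase that acts further down the same route, moved in the opposite direction: it read 10.09, 9.63, 10.05, 10.02 and 10.18 against 11.10, 11.33 and 11.77 (-1.42 ± 0.13, adjusted p = 4.30e-08), and its second probe gave -1.39. CG31075, which the study lists under amino acid catabolism, had the lowest change of all named genes. It read 9.77, 9.84, 9.77, 9.75 and 10.09 against 11.65, 11.87 and 12.36 (-2.12 ± 0.12, 4.33-fold lower, adjusted p = 3.16e-11). On that list 24 probes were tested, 1 called higher (Tat) and 4 called lower (CG31075, both of GstZ1 and CG17896), and 2 and 9 passed the adjusted p (median -0.23).

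Several genes of innate immunity were among those called higher, chosen after their values were seen and not from a list. The pirk gene, which encodes a negative regulator of the Imd pathway, read 12.55, 12.30, 12.19, 12.19 and 12.34 against 10.34, 10.80 and 11.22 (1.53 ± 0.14, 2.89-fold, adjusted p = 3.32e-08). Its other 2 probes (1.12 and 0.95) did not pass. Sting, a sensor of cyclic dinucleotides, read 15.17, 15.13, 15.24, 14.82 and 15.15 against 13.63, 13.76 and 13.98, with groups apart and a change of 1.30 ± 0.08 (adjusted p = 1.40e-10). The virus-induced gene vir-1 rose by 1.16 ± 0.11 (adjusted p = 7.17e-08), from a 25 °C median of 7.18. The Bomanin BomBc2, a short secreted peptide of the Toll response, rose by 1.19 and 1.16 at its 2 probes. It is a member of a gene family with similar sequences, and whether its probes separate the members was not tested. The engulfment receptor drpr read 8.52, 8.38, 8.69, 8.47 and 9.01 against 7.29, 7.50 and 7.73 (1.08 ± 0.12, adjusted p = 4.07e-07), while a second drpr probe gave 0.11 and did not pass. All of these genes' called probes were without overlap.

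Some adhesion and cytoskeleton genes were called higher as well. Of 19 listed integrin adhesion genes, 6 probes were tested and 3 called, all higher (median 0.84). ItgaPS4, an integrin alpha subunit, read 9.29, 9.02, 9.24, 8.62 and 8.94 against 7.32, 7.82 and 8.16 (1.29 ± 0.17, adjusted p = 4.59e-06). The PDZ and LIM domain protein gene Zasp52 read 10.27, 9.93, 10.41, 9.78 and 10.10 against 8.28, 8.96 and 9.19 (1.28 ± 0.20, adjusted p = 4.46e-05). Paxillin (Pax), an adaptor at integrin contacts, rose by 1.09 ± 0.15 (adjusted p = 6.01e-06). With the slide block ItgaPS4 (0.95) and Pax (0.74) passed the adjusted p but not the fold limit. The alpha subunit gene mew passed at 0.59, and the linker Vinc stood at 0.05 (adjusted p = 0.596). The one tested probe of the cell-cell adhesion list passed as lower, at -0.23.

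Svil, the fly supervillin, an actin-binding protein of the villin family, read 10.44 to 10.73 on the 5 arrays at 24 h against 8.92, 9.15 and 9.37 (1.45 ± 0.11, 2.74-fold, adjusted p = 1.14e-09). Its second called probe gave 1.45 as well. The membrane-bending protein gene mim was called at both probes (1.43 and 1.04), the latter with overlap between groups. Of 11 tested tubulin and actin probes, 4 passed the adjusted p as higher and 0 as lower (15.9% and 16.5% of all probes tested). With a slide block 2 passed as higher and 1 as lower. Only betaTub97EF among the 11 was called. This beta-tubulin read 13.44, 13.39, 13.43, 13.65 and 13.46 against 11.59, 12.35 and 12.40, with no overlap (1.32 ± 0.12, 2.50-fold, adjusted p = 1.98e-08). The median of these 11 probes was -0.01 (0.20 with a slide block), and betaTub56D (-0.08 and -0.19) and alphaTub84B did not pass. Of 7 tested probes for actin regulators none was called, 2 passed as higher and 1 as lower (median 0.02). The intraflagellar transport gene nompB, needed for cilia, read 7.79, 7.43, 8.01, 7.87 and 8.01, and was not well above background on any array at 25 °C. With the background correction used here its rise was at least 3.11-fold (adjusted p = 1.86e-09). The fitted change was 1.06 without the limit on local backgrounds and 5.23 with the scaled processed signals, so the bound holds for this correction only.

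Some genes for receptors, ligands and kinases were also called higher. Pvf3, a ligand of the PDGF and VEGF receptor family, read 9.42, 8.90, 9.16, 8.62 and 9.13 against 6.92, 7.70 and 8.15 (1.44 ± 0.21, adjusted p = 1.87e-05). With a slide block its change was 0.78 (adjusted p = 0.0342), below the fold limit. The Netrin receptor gene unc-5 was called at 3 probes (1.43, 1.43 and 1.22), and rl, the ERK kinase, read 11.94, 11.85, 11.94, 12.30 and 11.75 against 10.27, 10.55 and 11.11 (1.39 ± 0.12, adjusted p = 1.54e-08). The second rl probe, at 1.00, passed the adjusted p and missed the fold limit. The nuclear receptor gene Hr51 rose by 1.14, the potassium channel beta subunit gene Hk by 1.30, and NKAIN, whose product binds the sodium pump, by 1.02 to 1.09 at 3 of 5 probes. The furin protease gene Fur1 was called at 1 of 3 probes (1.02 against 0.05 and -0.17). Prip, an aquaporin, read 11.11, 10.99, 11.03, 10.76 and 11.43 against 9.48, 9.69 and 10.04, and groups did not overlap (1.35 ± 0.13, 2.55-fold, adjusted p = 3.54e-08). The calcium pump PMCA passed at 0.96, just below the fold limit, and the 2 probes of SERCA stood at 0.06 and 0.02.

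On the insulin and TOR signaling list, 64 probes were tested, 2 were called higher and none lower, and 19 passed as higher against 4 as lower (median 0.15). Over all probes tested, 15.9% passed as higher and 16.5% as lower. Both called probes belong to Pdk1, the kinase that activates Akt. All 4 Pdk1 probes passed, with changes of 1.28, 1.04, 0.95 and 0.52. The insulin receptor InR passed at 4 of 5 probes (0.51 to 0.67), the kinase S6k at 4 of 5 (0.48 to 0.93) and the insulin-binding protein gene ImpL2 at both (0.85 and 0.71). The ligand gene Ilp6 passed at 3 of 4 probes (0.35 to 0.91), the other at -0.13. Each of the list's 24 h array means (0.15 to 0.26) lay above those at 25 °C (-0.07 to 0.07), but the list median was -0.11 under median scaling, where that of all probes was -0.18.

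**Figure D3:**
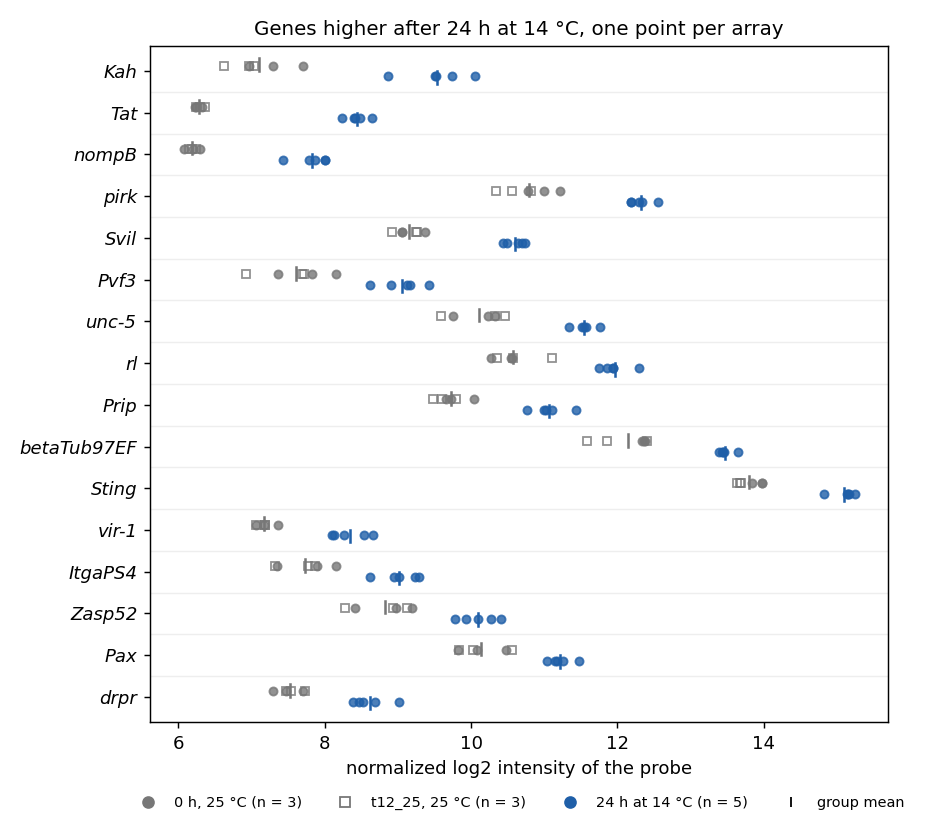
Log2 intensity (x axis) of 16 genes called higher, 1 probe each, a point per array for 0 h (grey discs), t12_25 (open squares) and 24 h at 14 °C (blue discs), with bars at group means. The 24 h points lie to the right of all 25 °C points in every row; Kah, Tat and nompB show the widest gaps.

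Other genes of the highest-ranked set have little annotated function here. CG33642 read 9.66, 9.21, 9.58, 9.00 and 9.60 against 7.14, 7.48 and 7.62 (1.98 ± 0.15, adjusted p = 1.48e-09). CG34033 rose by 1.65 ± 0.22, with replicate 4 lowest at 7.22, and by 1.02 with a slide block (adjusted p = 0.0450). CG32944, annotated as a protein kinase by the study, was well above background on 1 of 6 arrays at 25 °C and on all 5 at 24 h (1.43 ± 0.15, 0.93 without the limit on local backgrounds and 3.98 with the scaled processed signals). CG34453 (1.45), CG8646 (1.40) and CG34386 (1.36) belonged to the same set. The antisense gene asRNA:CR43465 rose by 1.45 ± 0.14. Whether its probe is free of signal from the gene on the other strand was not tested.

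At some genes one probe was called and another was not. Among named genes with several tested probes, 37 had a called probe: at 14 all probes were called, at 23 only some, and at none in both directions. RpLP1, a protein of the ribosomal stalk, is the plainest case. One probe read 16.62, 16.82, 16.77, 16.74 and 16.75 against 16.41, 16.67 and 17.03 (0.07 ± 0.10, adjusted p = 0.637). The other probe read 10.36, 10.20, 10.37, 9.97 and 10.04 against 6.96, 7.52 and 7.73, 6.68-fold higher (2.74 ± 0.17, adjusted p = 9.29e-11). Groups overlapped at the first and were more than 2 log2 units apart at the second. Of the 4 probes of lncRNA:Hsromega, a nuclear RNA of the stress response, 2 were called (1.71 ± 0.34 and 1.15 ± 0.25), and 2 did not pass (0.43, adjusted p = 0.158, and 0.49, adjusted p = 0.111). Pabp2, the nuclear poly(A)-binding protein gene, showed 1.09 at one probe and -0.02 at another. Atg10 showed 1.17 and 0.11, and ND-B16.6 of respiratory complex I 1.08, 0.01 and -0.08. Which transcript forms these probes bind was not tested here. For RpLP1, the study describes, from a separate array experiment, a probe raised in the cold as specific to the form ending at the most distal polyadenylation site. Whether that is the probe called here was not tested.

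Other genes that fell came from redox defence, RNA and chromatin. CG12896 and Prx6c, both of the peroxiredoxin family, fell together. CG12896 read 9.80, 9.56, 10.00, 10.05 and 10.02 against 11.64, 11.91 and 12.63 (-2.11 ± 0.19, 4.31-fold lower, adjusted p = 2.85e-08). Prx6c read 9.64, 9.38, 9.98, 10.20 and 9.98 against 11.24, 11.95 and 12.27 (-2.06 ± 0.23, adjusted p = 5.19e-07). Whether their probes tell these paralogs apart was not tested, so they may not be independent values. Catalase (Cat) passed at 1 of 2 probes, with -0.48, but not with a slide block (adjusted p = 0.0595) or with the replicate block among the 11 arrays (adjusted p = 0.0686). CG34232 read 10.17, 9.90, 10.25, 10.43 and 10.75 against 11.72, 12.02 and 12.28 (-1.71 ± 0.14, adjusted p = 4.44e-09).

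Among genes of RNA biology, zuc, the endonuclease of the piRNA pathway, read 7.33, 7.58, 7.41, 7.38 and 7.09 against 8.48, 8.72 and 9.33 (-1.497 ± 0.16, adjusted p = 2.39e-07). The dosage compensation RNA lncRNA:roX2 read 9.96, 10.21, 9.85, 10.73 and 10.46 against 11.28, 11.57 and 11.88 (-1.36 ± 0.18, adjusted p = 2.98e-06), whereas its second probe gave -0.08 (adjusted p = 0.852). The snoRNA:Psi28S-291, a guide for rRNA pseudouridylation, fell by 1.68 ± 0.31 (adjusted p = 2.26e-04), with replicate 5 at 10.42, close to the lowest array at 25 °C (10.48). The Cajal body gene coil fell by 1.02, and the zinc finger gene Sry-delta by 1.04 with a 24 h range of 10.30 to 10.40. The transferrin gene Tsf3 fell by 1.17, and the growth-blocking peptide gene Gbp1 by 1.02 and 1.08 (with a slide block -0.62 and -0.79).

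Metabolic lists had medians closer to 0. For their counts, the shares over all probes tested were 3.42% called, 15.9% passing as higher and 16.5% passing as lower. Of 129 oxidative phosphorylation probes, 1 was called higher and 2 lower, both of the latter from ND-AGGG of complex I (-1.13 and -1.12), and 4 and 27 passed the adjusted p (median -0.17). Of 80 probes for the mitochondrial ribosome none was called, 4 passed as higher and 27 as lower (median -0.19), led by mRpS11 (-0.97 and -0.96). With a slide block 3 of these were called lower, both mRpS11 probes (-1.14 and -1.01) and mRpL36 (-0.85 to -1.15). Of 28 peroxisome probes, 1 was called (Pex2, a peroxin, -1.001), 1 passed as higher and 12 as lower (median -0.27). All 3 lists kept a negative median under each setting tried.

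The cytoplasmic ribosome (134 probes, median 0.03), the proteasome (49, 0.001), glycolysis (33, 0.000) and the TCA cycle (32, -0.14) had at most 1 called probe each. In these lists 3, 4, 6 and 2 probes passed as higher and 3, 4, 2 and 5 as lower. The medians of the first 3 changed sign under some settings, among them median scaling. On the lipid metabolism list of 27 probes, pdgy, an acyl-CoA synthetase gene, was called (1.01), and 10 passed as higher against 3 as lower (median 0.10, -0.04 under median scaling). On the beta oxidation list (median 0.05), 1 of 24 probes was called higher and 1 lower, the latter for the acyl-CoA dehydrogenase gene CG3902 (-1.06). On the autophagy list (24 probes, median 0.09), Atg10 (1.17 at 1 probe) and the protease gene Atg4a (-1.20 ± 0.10) were called in opposite directions.

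None of the 19 heat shock probes was called, with 1 higher and 9 lower at the adjusted p (median -0.40). Hsp27, a small heat shock protein gene, passed at all 4 probes (-0.59 to -0.71), and Hsp22 (-0.72), the 2 probes of Hsp67Bc (-0.67 and -0.67) and 1 probe of Hsp67Ba (-0.47) also passed as lower. With a slide block Hsp22 (-0.24, adjusted p = 0.402) and both Hsp67Bc probes (-0.31 and -0.33, adjusted p = 0.156 and 0.176) did not pass. Neither did 2 of the Hsp27 probes (adjusted p = 0.0637 and 0.149). Hsp26 read 10.32, 9.92, 10.41, 11.30 and 11.04 against 8.99, 9.59 and 10.43, overlapping, and passed as higher (0.92 ± 0.28, adjusted p = 0.0131). Its adjusted p was 0.0510 without 24 h replicate 4 and 0.0517 with a replicate block among the 11 arrays, while with a slide block it was called (1.16, adjusted p = 0.0257). Probe A_09_P029571 of the list, with no gene name here, read 9.51, 9.38, 9.71, 11.33 and 10.49 against 8.92, 9.51 and 10.26, also overlapping. It did not pass (0.54 ± 0.45, adjusted p = 0.421) but was called with a slide block (1.87, adjusted p = 0.0308). Hsp23 read 7.82, 7.71, 7.68, 8.93 and 8.90 against 8.71, 9.04 and 9.84 (-0.99 ± 0.36, adjusted p = 0.0387) and turned to 0.32 (adjusted p = 0.652) with a slide block. With that block the list median moved to -0.07. With it 4 of the list's probes passed as lower and 2 as higher, against 11.7% and 11.4% of all probes tested. DnaJ-1, a co-chaperone gene, stood at 0.46 (adjusted p = 0.0696, and 0.0199 with the replicate block among the 11 arrays), and the ETS factor gene Ets97D at 0.19 (adjusted p = 0.463).

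A pair of further comparisons placed 24 h within the time course. In the series, 6 arrays were marked as outside the quality range, none of them at 24 h or 25 °C. They were 4 h replicate 5, 12 h replicates 2 and 3, and 72 h replicates 1, 2 and 3. The 12 h and 72 h values thus rest largely on marked arrays. Without the marked arrays, 533 probes were called between 24 h and 25 °C. Between 12 h and 24 h, 4 probes were called, all lower (0.0258% of those tested), and 72 passed the adjusted p (0.464%). Several replication genes were among these: RnrS was lower at 24 h than at 12 h by -0.73 ± 0.08 (adjusted p = 1.63e-04), Orc6 by -0.84 ± 0.14 (adjusted p = 0.00675), Prim1 by -0.75 ± 0.13 (adjusted p = 0.0116) and dpa by -0.60 ± 0.11 (adjusted p = 0.0131). In all, 7 of the 53 S phase probes passed. The called probes included CG12896 (-1.51), Prx6c (-1.54) and CG34232 (-1.09). CG31075 passed below 2-fold (-0.89).

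Between 24 h and 72 h, 61 probes were called (0.393%), 43 higher and 18 lower at 72 h. Tat fell from 8.44 ± 0.15 (SD, n = 5) to 7.34 ± 0.17 (SD, n = 4), a change of -1.10 (adjusted p = 1.12e-07). Prip was higher still, at 12.48 ± 0.11 (1.41, adjusted p = 1.29e-06), as was drpr (1.10, adjusted p = 1.94e-05). CG12896 (-1.87), Prx6c (-1.85) and CG34232 (-1.53) were lower still. Orc6 was higher at 72 h than at 24 h by 0.77 ± 0.13 (adjusted p = 6.61e-04), whereas Prim1 and RnrS did not pass. Of the 53 S phase probes 2 passed the adjusted p, against 7.05% of all probes tested. Against the same 25 °C arrays the S phase median stood at -0.11 after 4 h. It was -0.53 after 12 h, then -0.80 (24 h) and -0.82 (72 h). All 4 medians share the 25 °C arrays and are given side by side only.

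**Figure D4:**
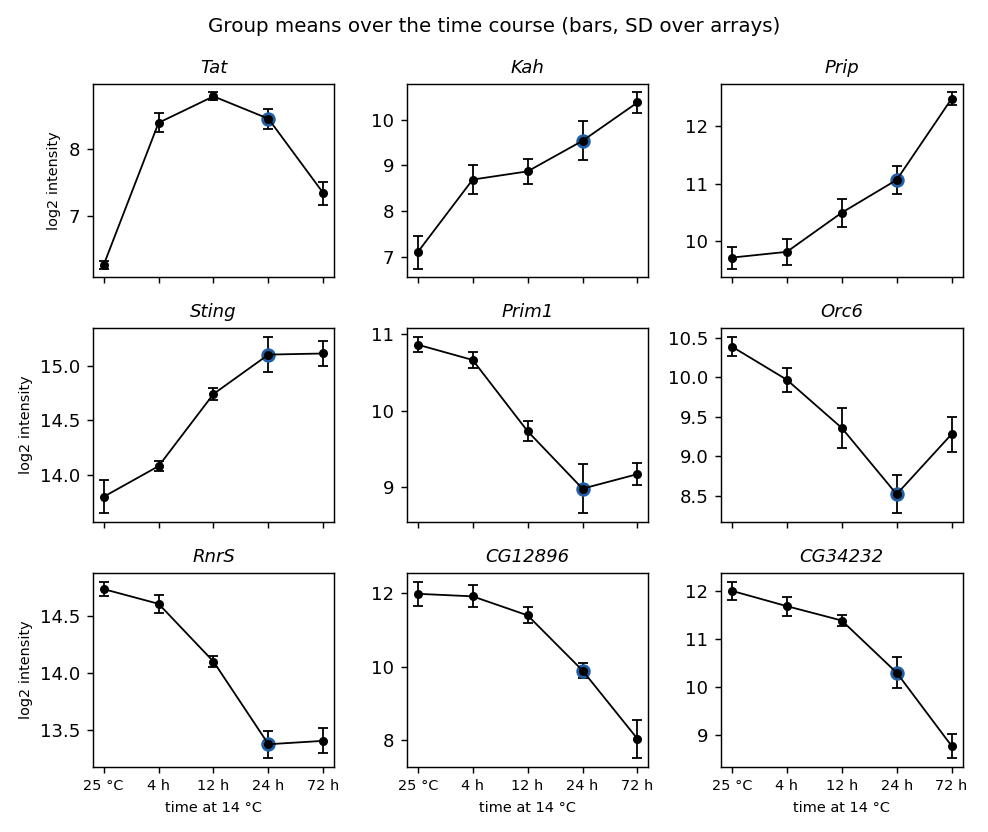
Group means of log2 intensity (y axis, scaled separately in each panel) for 9 genes at 25 °C (n = 6) and after 4 h (n = 5), 12 h (n = 3), 24 h (n = 5, ringed in blue) and 72 h (n = 4) at 14 °C, with bars of 1 SD over arrays. Times are spaced evenly and not to scale. Tat is lower at 72 h than at 24 h, Prip is higher, and RnrS reaches its low level by 24 h. The 4 h, 12 h and 72 h means include arrays outside the quality range.

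The slide term changed 21 of the 114 called probes of named genes to not called, and 93 stayed called. All 114 kept their sign. The largest losses were the growth regulator gene L (1.05 to 0.20, adjusted p = 0.770) and Had2 (-1.25 to -0.43, adjusted p = 0.297). Other probes that lost the call, such as nemy (-1.06 to -0.68), Pvf3 and Pax, kept an adjusted p under 0.05 and missed the fold limit. The same held for both Pdk1 probes (0.94 and 0.85), both ND-AGGG probes (-0.88 and -0.97), Pex2 (-0.97), CG17896 (-0.97), CG3902 (-0.80), coil (-0.97) and the first unc-5 probe (0.94). With the slide term 13 of the 45 M phase probes passed as lower, as did 17 of the 129 oxidative phosphorylation probes. Of the 64 insulin and TOR probes, 14 passed as higher. Over all probes tested, 11.7% passed as lower and 11.4% as higher with that term. The replication genes called above were all called with the slide term too. On the S phase list it also brought dup (-1.19), Mcm10 (-1.12), PolE2 (-1.06), Psf1 (-1.04) and Orc4 (-1.04) past the fold limit. Elsewhere among listed genes, CG8043 of amino acid catabolism (-0.90 to -1.07), 1 InR probe (0.62 to 1.14) and RpL30 of the cytoplasmic ribosome (0.58 to 1.24) became called, beside the heat shock and mitochondrial ribosome probes given above.

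**Figure D5:**
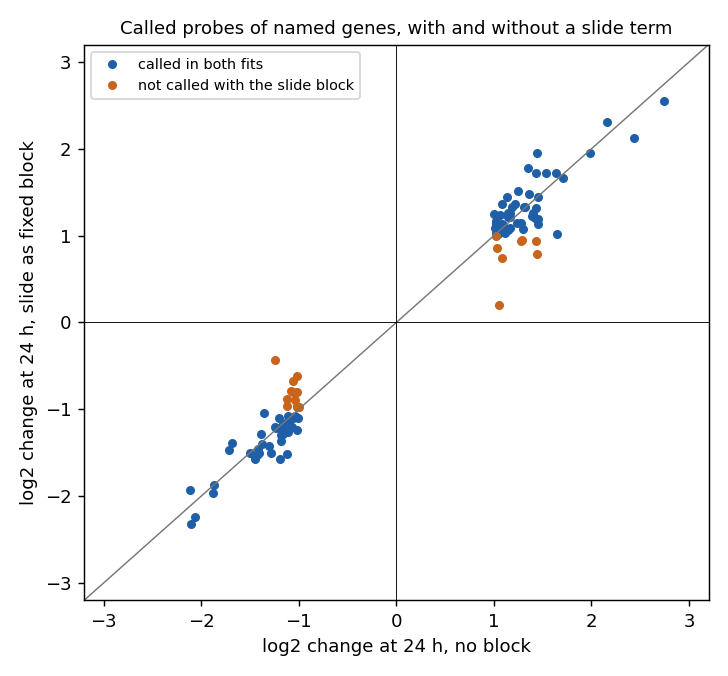
Log2 change at 24 h without a block (x axis) against the change with slide as a fixed block (y axis) for the 114 called probes of named genes, on the diagonal where equal. Blue points were called in both fits (93) and orange points without the block only (21); L and Had2 lie farthest toward 0.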

How the data were processed

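Total RNA was labelled with Cy3 and hybridised to single-colour Agilent Drosophila 4x44K V2 arrays, 1 RNA per array. The deposited scanner files hold spot and background intensity values as the Feature Extraction software of the authors (version 10.7) wrote them, not normalized. The authors also deposited a table of log2 values, made by normexp background correction, quantile normalization and surrogate variable adjustment for batch. That table was used as an alternative only.

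Spot median intensities were background-corrected with normexp (offset 50). Local backgrounds over 3 times their array's median were set to the median first (23 spots, 2 of them on the 24 h arrays). Values were then quantile-normalized and log2-transformed, outlier spots were left out, and spots of a probe were reduced to their median. A few values were thus absent (22 on the 11 arrays among tested probes) and their probes were fitted on the remaining arrays. Probes above log2 6.6 on at least 3 of 23 arrays were tested. The limma package (version 3.58.1, R 4.3.3) was fitted over all 23 arrays with the 0 h and t12_25 arrays pooled, and p-values are two-sided and adjusted over all 15503 tested probes. A change counted as called at an adjusted p under 0.05 and 2-fold. The procedure was tested on simulated data. The number of arrays limits the precision, and no gene spot was saturated on any array.

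Gene symbols came from accessions in the files and the study's probe tables, matched to RefSeq: 3991 probes had 1 symbol, 33 had several and 28138 had none here. A gene was represented by its probe of highest mean intensity. Named were the 15 highest and 15 lowest such genes called without overlap between groups, up to 4 members of each list with the largest change, genes the study names for the time course, and at most 2 unnamed probes in each direction. Other called named probes were described by role. One further named gene is not reported here. Members and lists were chosen with earlier results of these data known. The 15 process lists are the study's, by probe.

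Replicate numbers come from the titles. Same-numbered arrays deviated together from their group means in all 9 pairs among 0 h, t12_25 and 24 h (r from 0.348 to 0.884), so among these 3 groups, though not over all time points, the numbers were taken to pair the arrays. The reported fit has no replicate block. No 2 arrays held identical values. Alternatives varied background correction, normalization, filter, baseline, fold limit, slide, scan date, replicate block, array weights and the arrays left out.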

Additional observations from a re-analysis of the deposited data

Results flagged for a closer look

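In 23 of 320 groups of arrays examined (7.19%), 1 array stood apart from the others by Dixon's criterion, which chance alone meets in about 1 in 20 groups. On 24 h replicate 4, which shared its slide with 24 h replicate 2, 10 genes stood apart. It was low for Prim1 (8.43, the others 9.03 to 9.24), Prim2 (9.81), RnrL (13.73), Mcm6 (11.03), Nuf2 (10.46), Sting (14.82), Pdp (10.45), Prosalpha4 (12.5) and Atg10 (9.38), and high for betaTub97EF (13.65, the others 13.39 to 13.46). On 24 h replicate 5, CG31075 (10.09), nemy (8.38) and the mean of the proteasome list (-0.033, the others 0.033 to 0.052) stood apart. On 24 h replicate 2, GstZ1 (9.63) and Hk (8.2) did so.

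Among the 25 °C arrays, t12_25 replicate 3 was high for rl (11.11, the others 10.27 to 10.57) and for CG34155 (8.06, the others 6.91 to 7.2). The t12_25 replicate 2 was high for CG12896 (12.63) and low for Pdrg1 (10.13). A second CG3902 probe (12.73) and GstE9 (11.36, the others 10.21 to 10.61) were high on 0 h replicate 2. CG34454 (7.14) was high on 0 h replicate 3 and Mcm2 (13) on 0 h replicate 1. In limma, leaving out any single array of the 11 kept the direction of each of these genes.

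The change from 25 °C differed between 24 h and 72 h, past both the adjusted p and the fold limit of limma, for 6 named genes. From 24 h to 72 h, Tat moved by -1.10 (adjusted p = 1.12e-07), CG12896 by -1.87 (9.65e-06), Prx6c by -1.85 (9.86e-05) and CG34232 by -1.53 (1.37e-06). Prip moved by 1.41 (1.29e-06) and drpr by 1.10 (1.94e-05).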

How the results depend on the processing

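Over 33 other settings, the count of 530 called probes stayed within 1.5-fold in 30, from 366 without the limit on local backgrounds to 758 with median scaling. It moved to 841 with a normexp offset of 0 (454 higher, 387 lower), to 963 with scaling of the processed signals to the 75th percentile (544 and 419) and to 5026 without the fold limit. In each setting all 530 probes kept their sign. Leaving out 1 array gave 518 to 549 calls, the replicate block 548 (501 shared), with 556 when only the 11 arrays entered, the authors' values 482, and scan dates 567 and 574 when fitted within each. Of the named genes, the replicate block over 23 arrays left RpL30 not passing the adjusted p (0.42, adjusted p = 0.0697), let GstE3 pass it (0.98, adjusted p = 0.0331), and changed no other call. Among the 11 arrays alone, Hsp26, RpL30 and Cat did not pass with it, and DnaJ-1, alphaTub84D, ATPsynC, RpL6, GstE3, GstE9 and a second Pfk probe did. With the 4 h, 12 h and 72 h arrays included, the numbers did not pair all arrays (r of same-numbered arrays from -0.882 to 0.902, over 0.1 in 33 of 49 pairs). For probes called between 24 h and 72 h, the replicate block gave 67 against 61, and leaving out 1 array 51 to 71. Between 12 h and 24 h, the block gave 10 against 4 and leaving out 1 array 1 to 7: 7 without 24 h replicate 5, 2 without 24 h replicate 2 or 12 h replicate 1 or 2, and 1 without 12 h replicate 3. Between t12_25 and 0 h, leaving out 1 array gave 0 to 2 calls, the 2 without t12_25 replicate 3. The replicate block among the 11 arrays, and both blocks for the other time points, were chosen after seeing the data. Among named genes that passed the adjusted p in either fit, Hsp23 alone reversed, to 0.317 with the slide block, where the cause was not tested. Sign changes of genes that passed in neither fit were not counted as reversals. Over the 30 highest and lowest named genes, 958 of 960 values kept direction and threshold; the other 2 missed the threshold within the second scan date, which holds 1 array at 24 h. Sizes moved more: the scaled processed signals changed 24 of 145 named probes by over 1.5-fold, offset 0 7 and the slide block 6. The list medians that changed sign most often were near 0: glycolysis (0.000) in 25 settings, tubulins and actins (-0.01) in 17 and the proteasome (0.001) in 15. Probes near background limit what can be said of weak genes.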

Other observations

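The largest changes on the array belonged to transcripts with no gene name here. At FBtr0078160, 2 probes rose from means of 6.93 ± 0.16 and 6.77 ± 0.12 (SD, n = 6) at 25 °C to 11.35 ± 0.25 and 11.19 ± 0.17 (SD, n = 5) at 24 h, 21.5-fold and 21.4-fold. At FBtr0335125, 2 probes fell from 11.91 and 11.11 to 9.72 and 9.04, by 4.56-fold and 4.21-fold. Groups did not overlap at any of these 4 probes. FBtr0078160 was already at 10.91 and 10.61 at 4 h, was at 11.52 and 11.08 at 12 h, and was lower at 72 h than at 24 h (-1.37 and -1.32). FBtr0335125 stood at 11.12 and 10.28 at 4 h and continued to 9.00 and 8.28 at 72 h.

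Negative control spots (153 per array) overlapped between the groups. Their mean log2 signal was 5.07 ± 0.22 (SD, n = 5) at 24 h and 5.13 ± 0.23 (SD, n = 6) at 25 °C (difference -0.067, two-sided exact permutation test over 462 splits, p = 0.662).

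Some lists with few paired genes showed no called probe at 24 h: the V-ATPase (7 probes, 0.02 to 0.47), the endoplasmic reticulum chaperone ERp60 (3 probes, 0.08 to 0.10) and 7 probes of RNA-binding proteins (-0.39 to 0.45), with none past the adjusted p. The JNK phosphatase gene puc passed at 1 of 2 probes (0.54, adjusted p = 3.70e-04), and Lasp, an actin-binding protein gene, at both (0.54 and 0.49).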
